A study of Caenorhabditis elegans with 2 samples.

Results

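Divergent promoters are stretches of DNA that lie between a pair of neighbouring genes transcribed away from each other, so that the 5′ ends of the genes face one another. Here they were taken as neighbouring protein-coding genes of the Ensembl WBcel235 annotation, the minus-strand gene first, with 5′ ends at most 1000 bp apart and not overlapping. Each region was the interval between the ends plus 200 bp to either side, so the rule itself uses gene positions and no measured value. The rule gave 1720 divergent regions among 9082 regions between neighbouring genes within the same distance. The others were 5555 tandem regions, whose genes run the same way, and 1807 convergent regions, between the 3′ ends of genes that run towards each other. The divergent regions held the 5′ ends of 3439 of 19973 protein-coding genes. One gene, elof-1, belonged to 2 pairs because Y54G11A.17 and lin-7 share an end, so the regions stand for 1719 distinct intervals.

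The data are chromatin immunoprecipitation and sequencing (ChIP-seq) lists for ATHP-1 in whole Caenorhabditis elegans, with a single group of 2 samples labelled as biological replicates. The worms were strain OP685, unc-119(tm4063) III with the transgene wgIs685, which gives ATHP-1 with GFP and FLAG at its carboxy terminus. They were young adults, males and females pooled, 64 hours after starved first-stage larvae from bleached embryos were synchronised, and the antibody was against GFP. There was no second genotype, treatment or stage, the tagged protein came from a transgene, and all tissues and the germ line were mixed, so a summit cannot be given to a cell type. The values compared are therefore those of divergent regions with those of tandem and convergent regions in the same lists, as descriptions without a test of significance.

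A single stretch of open DNA between head-to-head genes can serve both of them, and in animals genes for general cell functions such as ribosomes, chaperones and RNA processing are often arranged in this way. In C. elegans many transcripts lose their first bases when a short leader RNA is spliced on, so an annotated 5′ end can lie at a splice acceptor, downstream of the place where transcription starts. ATHP-1 is a nuclear protein with AT-hooks, short stretches that bind the minor groove of AT-rich DNA, and a PHD finger, a fold that in many proteins reads histone tails. Binding is given by the summit, the position of the highest signal of a peak, and by the signal value, a score of the authors' peak caller that has no fixed range. A region is called bound when it holds a summit of the authors' reproducible list, which had 1649 peaks.

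The sequences of 3 bound divergent intervals show how little DNA can separate such genes. They are among the 4 with the highest signal of those of at most 300 bp on chromosomes II to V and X, and are printed from the RefSeq assembly of WBcel235 on the plus strand, with the minus-strand gene to the left. Capitals mark the 21 bases centred on the summit.
ears-2 and uncp-18 (chrIV:390469-390559): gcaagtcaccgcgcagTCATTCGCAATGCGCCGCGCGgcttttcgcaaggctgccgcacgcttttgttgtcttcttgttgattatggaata
rab-18 and kbp-4 (chrIII:1080776-1080900): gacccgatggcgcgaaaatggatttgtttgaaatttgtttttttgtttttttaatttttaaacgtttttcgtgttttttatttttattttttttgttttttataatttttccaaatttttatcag
cyn-4 and copz-1 (chrII:10872612-10872878): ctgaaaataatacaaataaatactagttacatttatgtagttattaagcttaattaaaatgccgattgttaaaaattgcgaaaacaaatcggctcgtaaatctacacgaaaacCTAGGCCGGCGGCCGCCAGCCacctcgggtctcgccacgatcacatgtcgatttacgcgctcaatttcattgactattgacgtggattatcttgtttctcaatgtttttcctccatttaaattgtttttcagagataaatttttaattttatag
The interval between ears-2, a glutamyl-tRNA synthetase, and uncp-18, a syntaxin-binding protein, was 53.8% GC, and its summit was at base 27 of 91. The interval of rab-18 and kbp-4 has no capitals, because the summit was 45 bp inside rab-18. It was also the poorest in GC of the 3, at 21.6%. Between cyn-4, a cyclophilin, and copz-1, a coatomer subunit, the summit lay in the short GC-rich block in capitals, while the interval as a whole was 35.2% GC.

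The 4 bound pairs with the highest signal on these chromosomes have longer intervals, so 100 bases to each side of the summit are shown, kept between the 5′ ends.
K01G5.10 and tasp-1 (chrIII:10759152-10759306): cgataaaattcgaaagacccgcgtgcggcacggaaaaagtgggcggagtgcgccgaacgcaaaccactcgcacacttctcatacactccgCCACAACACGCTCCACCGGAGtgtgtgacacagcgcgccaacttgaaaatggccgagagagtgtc
drr-2 and set-16 (chrIII:13643645-13643845): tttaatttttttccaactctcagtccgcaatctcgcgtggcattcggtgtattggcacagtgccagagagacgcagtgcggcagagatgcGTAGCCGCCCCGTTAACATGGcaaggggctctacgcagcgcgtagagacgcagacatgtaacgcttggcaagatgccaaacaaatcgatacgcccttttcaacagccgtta
rpl-20 and Y17G9B.5 (chrIV:4749970-4750170): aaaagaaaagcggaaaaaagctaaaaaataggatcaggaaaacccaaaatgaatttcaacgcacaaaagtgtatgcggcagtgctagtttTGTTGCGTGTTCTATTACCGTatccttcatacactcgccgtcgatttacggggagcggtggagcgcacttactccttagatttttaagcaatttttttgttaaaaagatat
Y22D7AL.10 and hsp-60 (chrIII:1619026-1619226): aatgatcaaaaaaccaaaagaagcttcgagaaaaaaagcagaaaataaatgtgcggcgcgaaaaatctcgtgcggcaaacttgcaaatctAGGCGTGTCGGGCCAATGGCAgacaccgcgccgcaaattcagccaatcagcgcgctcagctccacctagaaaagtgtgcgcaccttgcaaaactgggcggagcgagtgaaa
These stretches were 57.4%, 52.7%, 38.3% and 49.8% GC in the order shown. Each of them holds the 6 bases TGCGGC on one strand or the other, as does the interval of ears-2 and uncp-18.

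The summit with the highest signal of the whole reproducible list, 1172, lay between K01G5.10 and tasp-1 on chromosome III, and the next, 909.5, between drr-2 and set-16 on the same chromosome. K01G5.10 (WBGene00010481) is annotated by RefSeq as a haloacid dehalogenase-like protein, and tasp-1 (WBGene00010480) is the worm taspase, a protease that in mammals cleaves MLL histone methyltransferases. Its summit was 730 bp from the K01G5.10 end and 55 bp from the tasp-1 end, with 476.1 in replicate 1 and 697.5 in replicate 2. The gene set-16 (WBGene00011729) encodes a histone H3 lysine methyltransferase of the MLL family, and drr-2 (WBGene00011730) a protein related to a translation initiation factor. The summit between them was 175 bp from drr-2 and 171 bp from set-16, at the middle of a 346 bp interval, with 364.2 in replicate 1 and 550.1 in replicate 2. In both pairs the signal was high in both replicates and higher in replicate 2.

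The summit of rpl-20, of the large ribosomal subunit, and Y17G9B.5, an ECSIT homologue, had 655.8 in the reproducible list, 270.8 in replicate 1 and 385.9 in replicate 2. Y22D7AL.10, the mitochondrial 10 kDa heat shock protein, and hsp-60, the chaperonin of the mitochondrial matrix with which it works, had 540.8 in the reproducible list, 227.9 in replicate 1 and 309.2 in replicate 2. Their summit was 197 bp from Y22D7AL.10 and 616 bp from hsp-60, so it lay on the side of the smaller protein's gene. The pair of rpl-15 and K11H12.8 had 523.8, and that of cct-8, a subunit of the cytosolic chaperonin, and Y55F3AR.2, a thioredoxin-domain protein, had 460.4. F44E5.4 and F44E5.5, which both encode Hsp70 proteins, had 419.2, with 201.3 in replicate 1 and 218.2 in replicate 2. These 2 genes are close copies of each other, so reads there could be placed in either copy, and the value is uncertain.

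Among the 25 bound divergent regions with the highest signal, from 1172 down to 256.2, were further pairs with genes of known function. Among them were tbb-1, a β-tubulin, beside rib-2 at 372.7, and cap-2, an actin-capping subunit, beside gmps-1, GMP synthase, at 399.8. The pair of npp-3, a nuclear pore protein, and top-2, topoisomerase II, had 309.3, and that of epc-1, an enhancer of polycomb homologue, and Y111B2A.12 had 354.5. The pair of fib-1, the nucleolar protein fibrillarin, and mut-15, a mutator gene of small RNA silencing, had 270.7. The pair of sec-61.B and trap-3, both of the translocon of the endoplasmic reticulum, had 267.3, and that of dad-1, an oligosaccharyltransferase subunit, and tre-1, a trehalase, had 256.2. The pair of F56G4.6 and wbp-4 had 315.7, and that of E04F6.6 and pcrg-1 had 288.7. All 25 regions were among the 500 strongest of both replicate lists. In 24 of the 25 the summit lay between the 5′ ends, the exception being rab-18 and kbp-4, and in 6 it was within 25 bp of the midpoint.

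**Figure D1:**
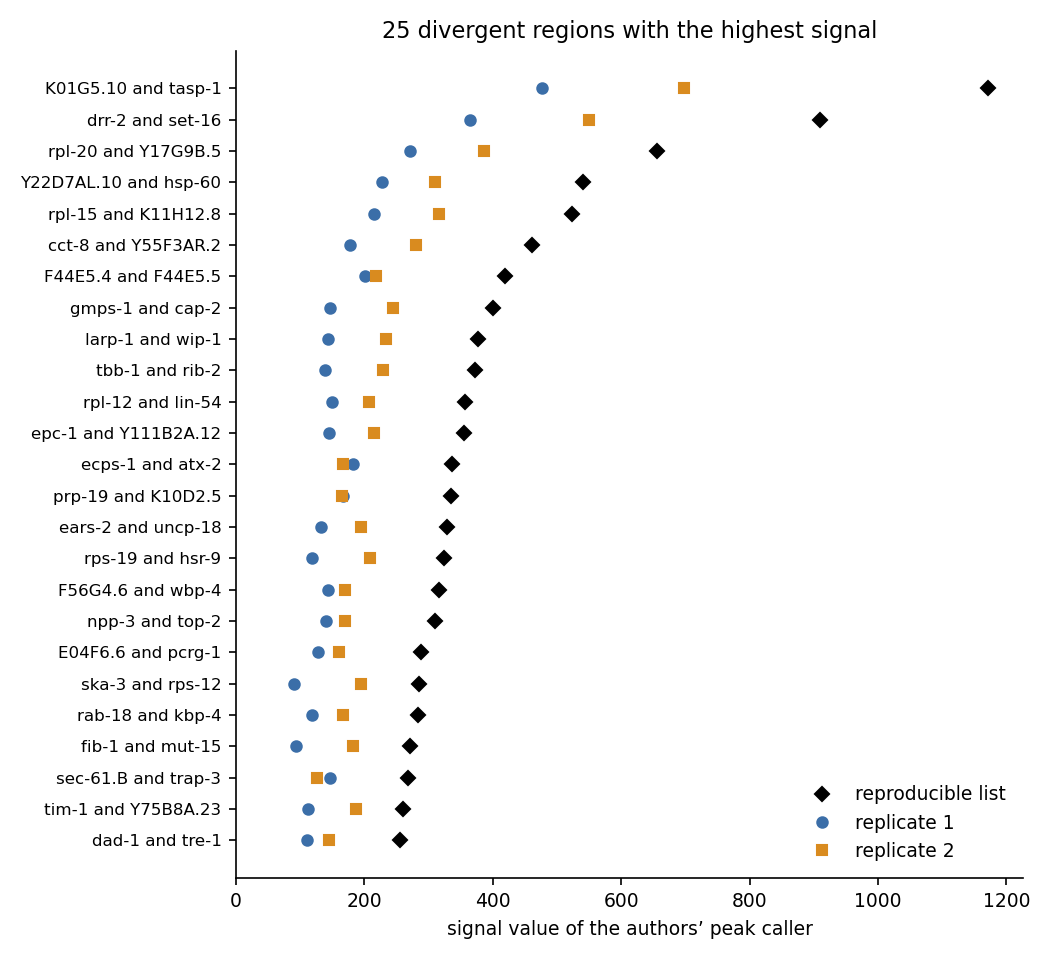
Signal value of the authors' peak caller (horizontal axis, no unit) for the 25 divergent regions with the highest reproducible signal, one pair per row, with the reproducible list as diamonds, replicate 1 as circles and replicate 2 as squares. Replicate 2 is to the right of replicate 1 in 22 of the 25 rows, and the first row reaches 1172.

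A reproducible summit lay in 208 of 1720 divergent regions (12.1%, exact binomial 95% interval 10.6 to 13.7%), in 299 of 5555 tandem regions (5.38%, 4.80 to 6.01%) and in 106 of 1807 convergent regions (5.87%, 4.83 to 7.05%). Over all neighbouring-pair regions the share was 6.75%. These intervals cover counting error within the lists and not the spread between replicates. Divergent regions were longer, with a median distance between ends of 474 bp against 356 bp in tandem and 318 bp in convergent regions. Per kilobase the density was 0.141 summits in divergent, 0.0682 in tandem and 0.0830 in convergent regions, a ratio of 2.06 to tandem and 1.69 to convergent regions. By construction a divergent region holds the 5′ ends of both its genes, a tandem region only that of the downstream gene, and a convergent region none. Set against these ends, there were 216 summits for 3440 ends in divergent regions and 306 for 5555 in tandem regions. Per 5′ end the excess over tandem regions was therefore much smaller than per region. The divergent regions held 216 of the 1649 reproducible summits (13.1%), and none of these also lay in a tandem or convergent region.

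The size of this difference depended on the replicate. With the 1649 strongest regions of replicate 1 in place of the reproducible list, 9.30% of divergent, 5.58% of tandem and 6.64% of convergent regions held a summit. With those of replicate 2 the shares were 13.5% of divergent, 5.04% of tandem and 4.65% of convergent regions. The ratio of densities to tandem regions was 1.50 in replicate 1 and 2.41 in replicate 2, and that to convergent regions 1.15 in replicate 1 and 2.40 in replicate 2. The divergent share of regions was thus above the other shares in both replicates. Per kilobase the excess over convergent regions was small in replicate 1. Per 5′ end the order depended on the replicate. Among its strongest regions replicate 1 had 163 summits for 3440 divergent ends and 318 for 5555 tandem ends, so fewer per divergent end. Replicate 2 had 239 for the divergent and 289 for the tandem ends, so more per divergent end. When any of the 30000 pooled regions was counted, 46.6% of divergent, 35.8% of tandem and 29.7% of convergent regions held a summit.

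Divergent regions held about as many of the strongest summits as tandem regions, and the typical signal differed little. Divergent regions held 4 of the 10 strongest reproducible summits, 10 of the 50 strongest and 18 of the 100 strongest, where the more numerous tandem regions held 2, 9 and 17. Further down the list tandem regions held more, with 32 divergent and 35 tandem summits among the 200 strongest and 82 divergent and 90 tandem among the 500 strongest. The median signal was 151 in divergent, 142 in tandem and 142 in convergent regions, beside 143 over the list. The middle range of signal, from the lower to the upper quartile, was 123 to 205 in divergent and 120 to 178 in tandem regions.

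The share of bound regions did not rise or fall steadily with the distance between the genes. Of divergent regions with ends 1 to 100 bp apart 13.0% were bound, against 6.25% at 101 to 200 bp, 17.1% at 401 to 500 bp and 7.89% at 801 to 1000 bp. The corresponding tandem shares were 5.03%, 5.77%, 6.37% and 3.58%. Divergent regions had the highest share in every one of the 8 distance classes, and its 95% interval was clear of both others at 401 to 500 bp and at 601 to 800 bp. The limit of 1000 bp made no visible step, since 12 of 131 regions at 901 to 1000 bp (9.16%) and 9 of 97 pairs at 1001 to 1100 bp (9.28%) were bound.

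**Figure D2:**
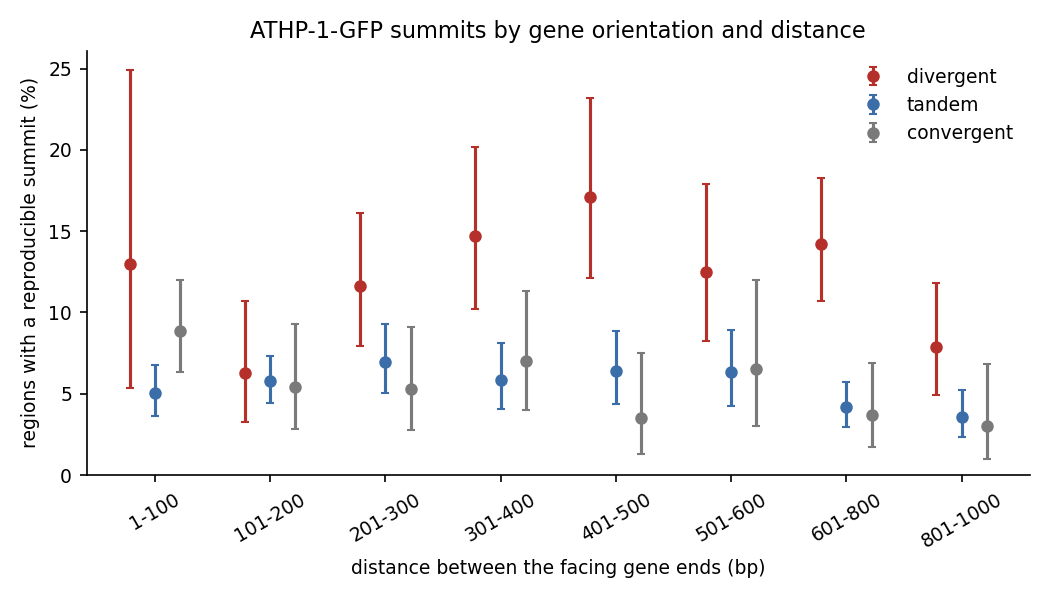
Share of regions with a reproducible summit (vertical axis, percent) by the distance between the facing gene ends (horizontal axis, bp) for divergent, tandem and convergent regions, with bars for the exact binomial 95% interval. The divergent points are the highest in every class, from 6.25% to 17.1%.

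Counted by gene, the pattern was as follows for a window from 300 bp upstream to 100 bp downstream of the annotated 5′ end, a window set after the data had been seen. A reproducible summit lay in the window of 296 of 3439 genes at divergent regions (8.61%, 95% interval 7.69 to 9.59%), 214 of 5553 genes downstream in a tandem region (3.85%, 3.36 to 4.39%) and 152 of 10981 other genes (1.38%, 1.17 to 1.62%). The share over all genes was 3.31%. The genes of a divergent pair are not independent here, because 104 pairs had a summit in the windows of both genes, 89 in that of 1 gene and 1527 in neither. The windows of a divergent pair can overlap, so 1 summit can count for both genes. This raises the divergent share against the tandem one, and the interval of the divergent share is too narrow.

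Within the divergent regions the summits lay mostly between the genes. Of 217 placements, in which the summit shared by the pairs of elof-1 counts for each pair, 199 (91.7%, 95% interval 87.2 to 95%) were between the 5′ ends, 9 inside the minus-strand gene and 9 inside the plus-strand gene. The space between the ends made up 55.2% of the length of the divergent regions. In tandem regions 213 of 306 summits (69.6%) were between the genes, where that space was 50.5% of the length. The median summit in divergent regions was 140 bp upstream of whichever gene was nearer, and the lower quartile was 62 bp. In tandem regions the median summit was 156 bp upstream of the downstream gene. The plus-strand gene was the nearer one for 126 placements and the minus-strand gene for 91.

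Many summits lay near the middle of the interval. Of the 217 placements, 134 (61.8%) were closer to the midpoint than to either end, and these were 67.3% of the 199 between the ends. In replicate 1 the share was 56.4% (95% interval 48.5 to 64.2%) and in replicate 2 it was 65.4% (59.0 to 71.4%). In intervals of up to 200 bp it was 6 of 19 (31.6%). The zone nearer the midpoint is by construction as long as the zones nearer an end together. Of all placements 42 were within 50 bp of an end. The median distance upstream of the nearer end was 22 bp for intervals of up to 200 bp, 93 bp above that and up to 400 bp, 172 bp up to 600 bp, 212 bp up to 800 bp and 291 bp up to 1000 bp. This distance cannot exceed the distance from an end to the midpoint, whose medians were 74.5, 151, 248, 347 and 460 bp in the same classes, so its growth with the interval says nothing about where summits lie. The median reproducible peak was 420 bp wide, and it covered both 5′ ends in 36 placements, 1 end in 106 and neither end in 75. Peaks over both ends were all in intervals of at most 400 bp, 14 of 19 up to 200 bp and 22 of 62 above, so there the binding cannot be assigned to either gene.

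**Figure D3:**
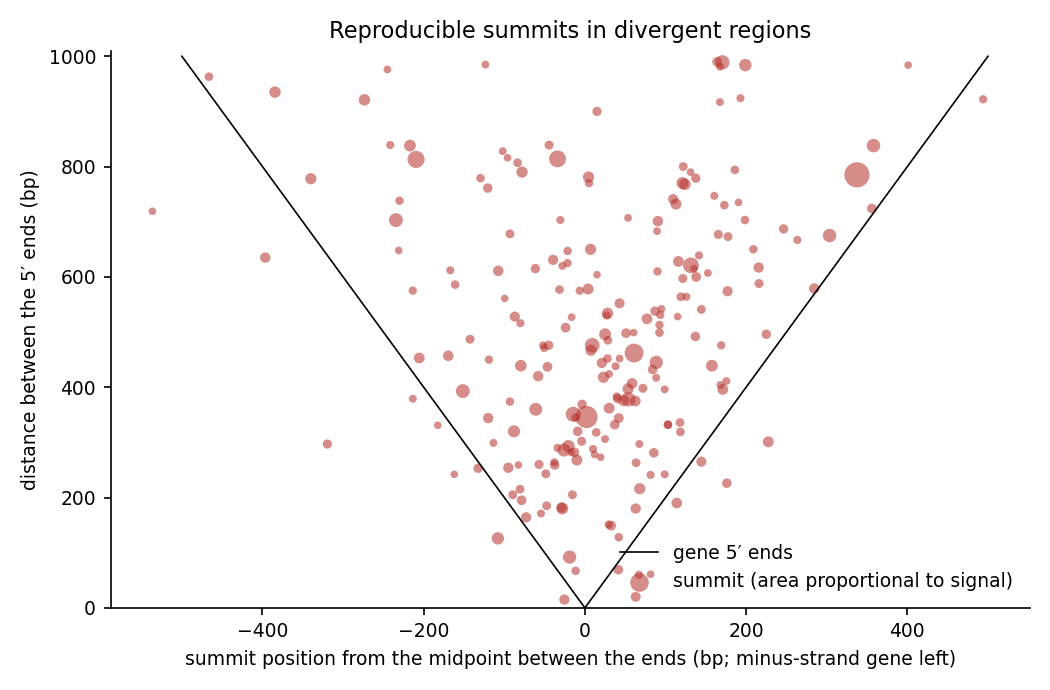
Position of each reproducible summit (horizontal axis, bp from the midpoint, minus-strand gene to the left) against the distance between the 5′ ends (vertical axis, bp), with lines for the gene ends and point area proportional to signal. Of 217 placements 199 fall between the lines.

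In the 3 closest bound pairs the summit lay inside a gene, and in the 3 widest it lay between the genes. With 200 bp of flank to either side, a close interval is a small part of its region and a wide one most of it. Interval length alone could therefore give this contrast. The closest bound pair was F25H9.6 and F25H9.7, a succinate dehydrogenase assembly factor, with ends 15 bp apart and a summit of 193 that lay 18 bp inside F25H9.6. Y59E9AL.36 and nbet-1 were 20 bp apart, with a summit of 182.6 that lay 53 bp inside nbet-1. In Y57E12AL.6 and Y57E12AL.1, at 60 bp, the summit lay 37 bp inside Y57E12AL.1 and had 125.7 in the reproducible list and 55.46 in replicate 2, and replicate 1 listed no region there. At the other extreme bath-42 and prp-8, a core splicing factor, were 990 bp apart with a summit of 172.7 that lay 331 bp from prp-8. The pair of larp-1, a La-related RNA-binding protein, and wip-1 was 989 bp apart with 377.2, and that of srz-97 and clec-57 was 985 bp apart with 113.6.

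A second summit was present in 9 of the 208 bound regions, and the other 199 had 1. In 7 of the 9 regions the summits were 200 to 210 bp apart, and in C55A6.1 and C55A6.10 they were 254 bp apart. The exception was ecps-1, a proteasome adaptor, and atx-2, an RNA-binding protein related to ataxin 2, on chromosome III. There the summits were 575 bp apart, one with 336.8 at 61 bp from atx-2 and one with 257.3 at 202 bp from ecps-1, so one lay towards each gene. The replicates differed in which was stronger. The summit of the strongest region was 8 bp from the atx-2 one in replicate 1 and 574 bp from it, towards ecps-1, in replicate 2. In epc-1 and Y111B2A.12 the stronger summit had 354.5 and the weaker 120.4, and in tim-1, the timeless homologue, and Y75B8A.23 they had 260.9 and 165. The small nuclear RNA gene sls-2.8 lies within 200 bp of the tim-1 summit, and its part in the result was not tested.

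The gene lists differed widely in how many of their divergent regions were bound, against 12.1% of all divergent regions. The 24 lists are described by their counts, and none was tested. Most were drawn by the first letters of gene symbols, so genes of the same function under other symbols are not in them. The highest counts among lists of at least 20 regions were those of ribosomal proteins and chaperones. The lowest were those of the large gene families of chemoreceptors, F-box proteins and C-type lectins, and of histones. Divergent regions with no gene in a list were bound in 135 of 1198 cases (11.3%), against 247 of 4564 (5.41%) for tandem regions whose downstream gene was in no list. The difference between orientations per region was therefore also present outside the lists. A divergent region holds the 5′ ends of both its genes and a tandem region only that of the downstream gene. These shares therefore do not compare single genes or ends. Within single lists the order of the divergent and tandem shares varied.

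**Figure D4:**
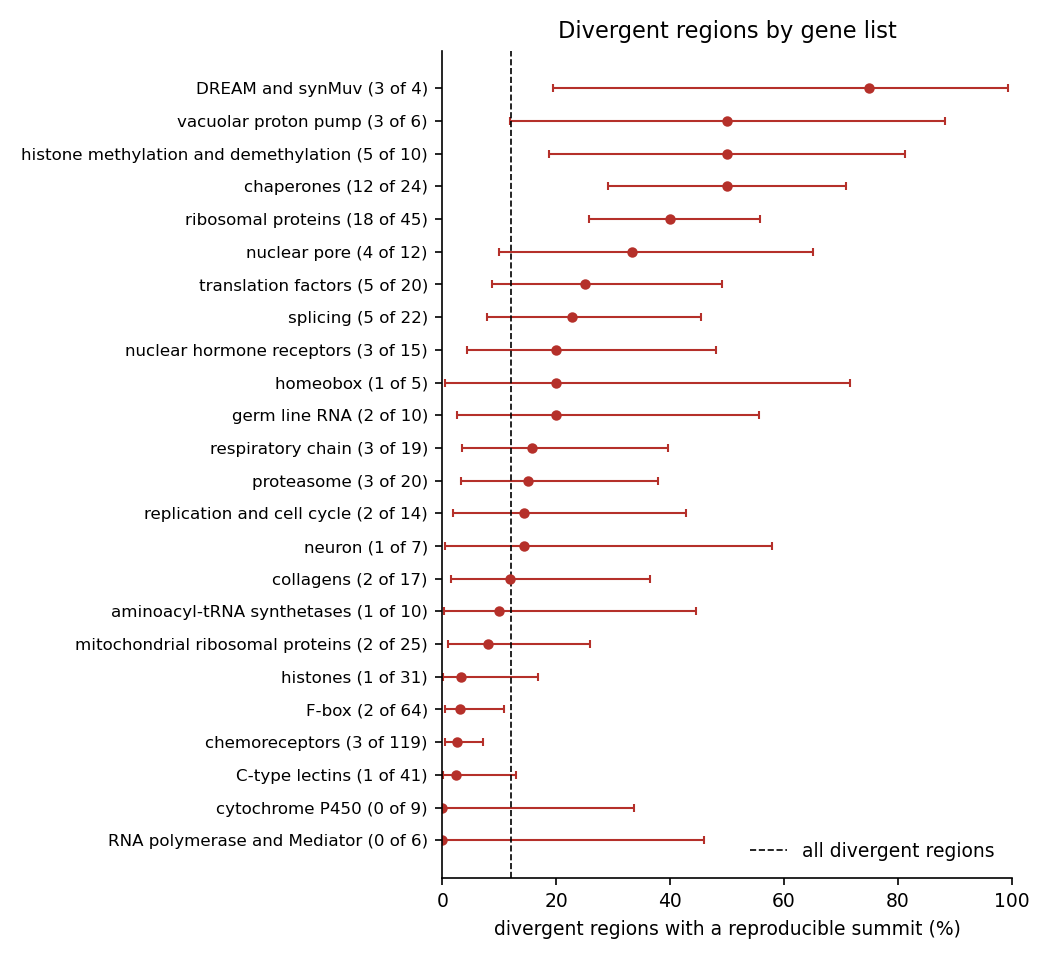
Share of divergent regions with a reproducible summit (horizontal axis, percent) for each gene list, with bars for the exact binomial 95% interval, the counts beside the name and a dashed line at the 12.1% of all divergent regions. Chaperones and ribosomal proteins lie to the right of the line with their intervals, and chemoreceptors and F-box genes lie to its left.

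Ribosomal protein genes (symbols in rpl-, rps- or rla-) were frequent at divergent regions, with 48 of 81 genes (59.3%), and 18 of their 45 divergent regions (40.0%, 95% interval 25.7 to 55.7%) were bound. Of 24 tandem regions upstream of a ribosomal protein gene 8 were bound (33.3%). Both subunits were represented, with rpl-20, rpl-15 and rpl-12 of the large and rps-19, rps-12 and rps-1 of the small subunit at the top. The signals of the 18 regions ran from 107.3 at rpl-39 and rps-30 to 655.8 at rpl-20 and Y17G9B.5, with a median of 233 against 152 over all bound divergent regions. The summit was not generally on the ribosomal side. In the 16 bound regions with 1 ribosomal gene it was nearer to that gene in 6, and the median distance was 294 bp to the ribosomal 5′ end and 230 bp to the partner's. Of 25 divergent regions of mitochondrial ribosomal protein genes 2 were bound (8.0%), at mrpl-45 with 163.6 and mrps-7 with 123. Of 32 tandem regions upstream of such a gene 4 were bound (12.5%).

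Chaperone genes with symbols in hsp-, dnj- or cct- had 12 bound regions of 24 (50%, 95% interval 29.1 to 70.9%), against 1 of 13 tandem regions (7.69%). Of the cytosolic chaperonin, which folds actin and tubulin, cct-8 had 460.4, cct-7 249.6, cct-1 201.5 and cct-5 189.9. Of the mitochondrial chaperones, hsp-60 had 540.8 and hsp-6, the matrix Hsp70, 177.5. The summit of hsp-6 and C37H5.5 was at 438 bp from hsp-6 and 162 bp from C37H5.5. DnaJ co-chaperone genes gave the others apart from hsp-110, from dnj-19 at 216.2 to dnj-14 at 127.8. The chaperone genes Y22D7AL.10, F44E5.4 and F44E5.5 are outside this list by their symbols, so the bound region of the Hsp70 pair is not among the 12. In 3 of the 12 regions the summit was nearer to the listed gene, and the median distance was 329 bp to its end and 188 bp to the partner's, where Y22D7AL.10 counts as the partner of hsp-60. Over all lists the listed gene was the nearer one in 28 of 60 regions.

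The lists of chromatin regulators had few divergent regions. Of 4 divergent regions of DREAM and synMuv genes, which repress germ line and cell cycle genes, 3 were bound. The pair of rpl-12 and lin-54, the DNA-binding subunit of DREAM, had 357, with 149.5 in replicate 1 and 206.4 in replicate 2, and its summit was 45 bp from rpl-12 and 348 bp from lin-54. The pair of vps-51 and lin-35, the worm retinoblastoma protein, had 234.8, and that of lin-53, a histone-binding protein, and nra-2 had 231.1. The list of histone methylation and demethylation genes, mainly those with symbols in set-, met-, mes- or jmjd-, had 5 bound regions of 10. Beside set-16 these were jmjd-1.2, a demethylase, with 236.8, set-21 with 199.1, set-26 with 134.3 and jmjd-4 with 109.1. The pair of dot-1.1, a histone methyltransferase outside the list, and zwl-1 had 130.9. With so few regions the 95% intervals were wide, 19.4 to 99.4% for DREAM and synMuv and 18.7 to 81.3% for histone methylation.

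Other general functions had smaller lists or smaller shares. Nuclear pore genes had 4 bound regions of 12, the strongest at npp-3 and top-2. Translation factors had 5 of 20, led by iff-2 and F54C9.14 at 244, and splicing genes 5 of 22, led by prp-19 and K10D2.5 at 334.5. Subunits of the vacuolar proton pump, which acidifies organelles, had 3 of 6, at vha-1 with 155.4, vha-8 with 135.6 and vha-18 with 106.8. The proteasome had 3 of 20, at rpn-3 with 194.2, rpn-9 with 145.5 and rpn-2 with 132.6. The respiratory chain list, which holds symbols such as nuo-, cox- and atp-, had 3 of 19, at atp-1 with 207.3, atp-5 with 139.3 and mev-1 with 109.1. Genes of complex I under other symbols were also bound, at ndub-8 with 215, ndua-2 with 191, nduv-3 with 144.3 and ndua-8 with 133.2, and are not in that count. The 6 divergent regions of RNA polymerase and Mediator genes held no reproducible summit, where an exact 95% interval reaches 45.9%. Tandem regions upstream of listed genes had the higher share for the proteasome (3 of 9), the respiratory chain (4 of 15) and RNA polymerase and Mediator (2 of 19). They had the lower share for nuclear pore (0 of 5), translation factor (2 of 12), splicing (1 of 6) and vacuolar proton pump genes (1 of 7).

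Chemoreceptor, F-box and C-type lectin regions were seldom bound. Chemoreceptor genes, which are expressed mainly in sensory neurons, had 3 of 119 (2.52%, 95% interval 0.523 to 7.19%). F-box genes had 2 of 64 (3.12%, 0.381 to 10.8%) and C-type lectins 1 of 41 (2.44%, 0.0617 to 12.9%). The tandem shares were 0.462% for chemoreceptors, 4.85% for F-box genes and 1.25% for C-type lectins. The partner of the strongest chemoreceptor region, rsr-1 and sri-5 at 227.9, is a splicing-related gene. In icl-1 and srh-2 the summit was 171 bp inside icl-1, an enzyme of the glyoxylate cycle, and 468 bp from srh-2. In srz-97 and clec-57, which counts for both lists, a small nuclear RNA gene lay within 200 bp of the summit, and its part was not tested. Of other large families, nuclear hormone receptors had 3 of 15 (20%), at nhr-47, nhr-142 and nhr-68, and collagens 2 of 17 (11.8%), a share near that of all divergent regions.

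Histone genes with his- symbols, mostly arranged as head-to-head pairs, had 31 divergent regions and 1 with a summit, at his-67 and his-68. Of 4 tandem regions upstream of a histone gene 1 was bound. The his-67 and his-68 region had 162.2 in the reproducible list, 116.4 in replicate 1 and 50.83 in replicate 2. Copies of histone genes are nearly identical, so reads could be placed in several of them, and both the value and the low count are uncertain. The pair of wapl-1 and htz-1, the H2A.Z histone variant, is outside the list and had 162.5. In 13 bound regions both genes were in a list. Among them were the splicing factors rsp-2 and rsp-1 at 208.6, hsp-110 and rpn-3 at 194.2, rps-10 and rpl-24.1 at 131 and vha-18 and pos-1, a germ line RNA-binding protein, at 106.8.

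Both replicates listed most of the bound regions, at different strength. Of the 208 bound divergent regions, 206 held a summit of any region listed in replicate 1 and 208 a summit of replicate 2. Among the 1649 strongest of each replicate were 144 (69.2%) in replicate 1, 188 (90.4%) in replicate 2, 129 (62.0%) in both and 5 in neither. Of the 52 regions with the highest signal 51 were among the strongest of both, against 6 of the 52 with the lowest. Across the 206 regions the signals of the replicates had a Spearman rho of 0.543 and a Pearson r of 0.658 on log10 values, a description over regions chosen for high pooled signal. The summits were close, with a median offset from the reproducible summit of 10 bp in replicate 1 and 8 bp in replicate 2.

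Signals at divergent regions were lower in replicate 1 than in replicate 2, and more so than at the other regions. The median ratio of replicate 1 to replicate 2 was 0.713 over 206 divergent regions (quartiles 0.564 and 0.916), 0.908 over 297 tandem regions (0.699 and 1.19) and 1.08 over 104 convergent regions (0.857 and 1.42). Replicate 2 was higher in 83.5% of the divergent, 59.6% of the tandem and 41.3% of the convergent regions. Scaling a list by a constant factor would move the 3 ratios together and leave their order as it is. Whether the replicate lists differ only by such a factor is not known. No label distinguishes the replicates beyond their number, no source used here gives their read depth, and the part of depth in this was not tested.

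**Figure D5:**
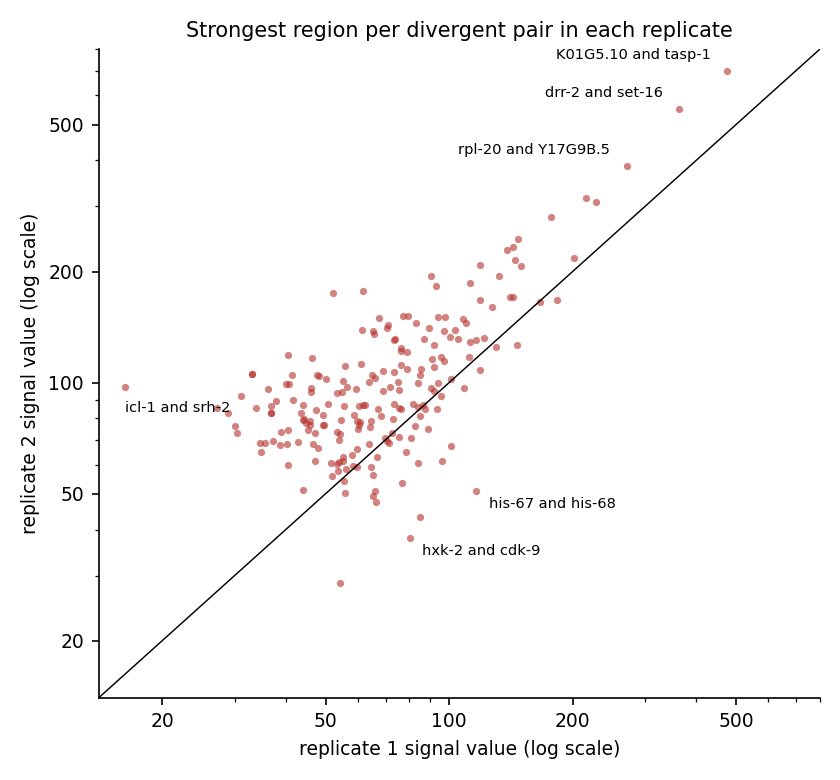
Signal of the strongest region at each bound divergent pair in replicate 1 (horizontal, log scale) and replicate 2 (vertical, log scale) for the 206 pairs listed in both, with the line of equal signal. Of the 206 points 172 lie above the line.

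The pairs farthest from that median lay on both sides. In icl-1 and srh-2 the signal was 16.21 in replicate 1 and 97.61 in replicate 2, a ratio of 0.166. The replicate 1 region was near the end of its list, at rank 28764 of 30000. Its summit was 140 bp from the reproducible one, against 6 bp in replicate 2, so the ratio may not compare the same site. Y54G11A.17 and elof-1 had 33.01 in replicate 1 and 105.8 in replicate 2. In the other direction his-67 and his-68 had a ratio of 2.29. The pair of hxk-2, a hexokinase, and cdk-9, a kinase of transcription elongation, had 80.08 in replicate 1 and 37.88 in replicate 2, a ratio of 2.11. W04C9.6 and W04C9.2 had 85.04 in replicate 1 and 43.34 in replicate 2, a ratio of 1.96.

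Of the 1512 divergent regions without a reproducible summit, 918 (60.7%) held no region of the pooled list either. The strongest regions of replicate 2 alone lay in 43 of the 1512, those of replicate 1 alone in 15 and those of both in 1. The lowest reproducible signal in a divergent region was 105.6, at R12C12.6 and ran-5, which is also the lowest of the list. Just below the list were npp-9 and F59A2.5 and hmgs-1 and F25B4.4, each with 105.4 in the pooled list, so the limit between bound and unbound follows the length of the authors' list and no gap in the values.

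Bound divergent regions were unevenly spread over the chromosomes. The share was 18.3% on chromosome III (52 of 284), 14.5% on I (46 of 318), 12.3% on II, 11.6% on IV, 7.64% on V (32 of 419) and 5.06% on X (4 of 79). For tandem regions it was 8.21% on I, 7.55% on III, 6.48% on II, 6.44% on IV, 2.71% on V and 1.18% on X. For convergent regions it was 10.9% on I and III, 6.52% on IV, 4.64% on II, 3.59% on X and 1.76% on V. The order of the chromosomes thus differed between orientations. The exact binomial interval of the divergent share on X was wide, 1.4 to 12.5%, and held the 12.1% of all divergent regions. Chromosome III held 11 of the 25 divergent regions with the highest signal and X none. The X chromosome also had fewer divergent regions for its genes, 2.89 per 100 protein-coding genes against 9.52 on the autosomes. Its 4 bound pairs were sec-15 and C28G1.2 at 219.4, R04E5.9 and cnnm-2 at 136.6, dnj-14 and glit-1 at 127.8 and trap-2 and ile-2 at 109.6. A tRNA gene lay within 200 bp of the summit of the first, and its part was not tested.

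Genes of small noncoding RNAs that are transcribed at high rate lay in few divergent regions. Transfer RNA, snoRNA or snRNA genes were present in 17 regions, of which 8 were bound (47.1%), and without these 17 regions the share was 200 of 1703 (11.7%). The strongest summit was within 200 bp of such a gene in 6 of the 208 bound regions, among them tmem-107 and rps-26 at 205.5, beside a small nucleolar RNA gene.

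The DNA under the summits was richer in GC than DNA in the middle of unbound divergent regions. The median GC content of the window reaching 100 bp to each side of the strongest summit was 41.3% over the 208 bound regions, against 33.3% at the middle of the 1512 unbound regions. At the middle of the bound regions it was 36.3%, and at the summits of bound tandem regions 38.8%. Over whole regions the medians were 36.9% in bound and 35.4% in unbound divergent regions. The part of base composition in the calling of these summits was not tested.

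The letters of 10 short motifs were searched on both strands of the same windows. None of the motifs holds another. The motif TTCGCG was in 20.2% of the windows at bound summits and 6.88% of those at the middle of unbound divergent regions. In the same order of windows GGTCTC was in 20.7% and 9.33%, the repeat GAGAGA in 23.6% and 13%, and CTCCGCC in 8.65% and 4.23%. At the summits of bound tandem regions TTCGCG was in 17.1%, GGTCTC in 15.1%, GAGAGA in 18.7% and CTCCGCC in 2.68%. The TATA box, TATAAA, was in 11.1% at bound summits and 29.6% at unbound middles. The motif AAATTT was in 35.1% at bound summits and 47.4% at unbound middles, and TGATAA, which GATA factors bind, in 8.17% and 20.3%. CCAAT was in 30.3% at bound summits and 30.8% at unbound middles, and CACGTG in 5.29% and 4.17%. The splice acceptor sequence TTTCAG was in 23.1% at bound summits and 30.3% at unbound middles. In this contrast, which sets summits against middles, the AT-rich motifs were rarer at bound summits and the GC-rich ones more frequent, as was GC itself, while CCAAT and CACGTG had close shares. At the middle of bound regions AAATTT was in 47.1% and TTTCAG in 32.2%, near the shares at unbound middles. Over whole regions TTTCAG was in 96.2% of bound and 84.3% of unbound divergent regions and AAATTT in 88% and 84.1%, so for these motifs the direction depended on the stretch compared. TATAAA was in 14.9% at the middle of bound regions, and in 61.5% of bound and 70.7% of unbound whole regions. TTCGCG was in 14.9% at the middle of bound regions, and in 41.3% of bound and 23.9% of unbound whole regions. Of the 3440 5′ ends at divergent regions, 987 (28.7%) were directly preceded by AG and 482 (14%) by TTTCAG, against 27.6% and 12.3% of all protein-coding genes.

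The motif TGCGGC was chosen after reading the sequences of 8 bound pairs, those printed above among them, and its counts are a description of them and of the rest. It was in 35 of 208 windows at the strongest summit of bound divergent regions (16.8%), and in 30 of 200 (15%) without those 8 pairs. It was in 55 of 1512 windows at the middle of unbound divergent regions (3.64%) and in 94 of 1433 windows at reproducible summits outside divergent regions (6.56%), whose median GC content was 42.3%. The 52 bound divergent regions with the highest signal had it in 12 windows (23.1%), and the 52 with the lowest in 7 (13.5%). All the pairs printed above are among the 52 highest. The motif was chosen from them, so these shares cannot show a rise with signal. It was also in 26 of 299 windows at the summits of bound tandem regions (8.7%), whose median GC content was 38.8%. At the middle of bound divergent regions it was in 15 of 208 windows (7.21%). The share at divergent summits was thus above these others, with no test made and for a motif chosen from divergent summits. Similar median GC content does not match single windows, and the part of base composition was not tested.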

How the data were processed

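Peak lists of 2 biological replicates of whole young adult worms with tagged ATHP-1 were used on the ce11 genome (WBcel235). Per the labels and the deposited readme text, the authors called regions in each replicate against a control, called a pooled list from both, and derived a reproducible list from these. Aligner, peak caller, thresholds and read depth: not given in the sources used here. The precision set by depth is therefore unknown. The deposited signal is a score of the authors' caller, used only to rank and describe regions within its list. The −log10 q-value, also deposited, was not used, and the summit is the authors' deposited offset from the start of the region.

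Neighbouring protein-coding genes were taken from Ensembl release 115, free of any other protein-coding gene between them, and classed by strand. A summit was placed in a region by its position, and with the reproducible list of 1649 peaks the same number of strongest regions was used per replicate. Shares carry exact binomial (Clopper-Pearson) 95% intervals, which cover counting error only. No significance test was made, since there was 1 group. Sequence was read from RefSeq's WBcel235 assembly, and gene descriptions from RefSeq. Regions, lists, motifs and comparisons were chosen with earlier results of these data known. The pairs named were the 25 with the highest signal, bound pairs with both genes in a list, the 5 with the most summits, the strongest bound pair of each list (every one where fewer than 4), the 3 closest and 3 farthest pairs, and the 3 highest and 3 lowest ratios between replicates, not all of which are described. Members of a list beyond these, the pairs on X, genes of a list's function outside it, those at the end of the peak list and just below it, and C55A6.1 and C55A6.10 were named after their values were seen, as were the sequences centred on summits. One sequence that the rule for short intervals gave is not reported here. Placement was tested on simulated summits. Python 3.11.15, pandas 2.3.3, scipy 1.17.1 and matplotlib 3.10.9 were used.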

Additional observations from a re-analysis of the deposited data

How the results depend on the processing

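The alternatives, 10 in number, were these: either replicate alone, the 825 strongest reproducible summits, 3298 pooled regions, pairs up to 500 bp apart, no flank, overlap of the peak interval by at least 1 bp, no summits at small RNA genes, genes consecutive by start, and autosomes alone. Of 59 alternative values 45 stayed within a set range of the value reported and 14 moved. That range was the 95% binomial interval for shares and, for ratios, the SD between the replicates, which the values with a replicate left out themselves set. For the signal ratio it had no width (1.07 to 1.07), and for the density ratio to convergent regions it ran from 0.808 to 2.58. The counts of values that stayed or moved therefore depend on these ranges and do not measure stability. The share of bound divergent regions (12.1%) ran from 9.3 to 13.5% with a replicate left out, and was 6.98% with the 825 strongest and 19.3% with 3298 pooled regions, which hold fewer and more summits by construction. The density ratio of divergent to tandem regions (2.06) ran from 1.5 to 2.48 and that to convergent regions (1.69) from 1.15 to 2.4, and the share nearer the midpoint (61.8%) from 56.4 to 67.3%. The share of summits between the ends (91.7%) ran from 87.1 to 90% with a replicate left out and was 87% for pairs up to 500 bp apart, and with no flank it has no value. The median signal of divergent over tandem summits (1.07) was 1.06 with a replicate left out (1.06 to 1.06), with the peak interval, without small RNA genes and with consecutive genes, 1.1 with the 825 strongest, 1.13 with 3298 pooled regions and 1.15 up to 500 bp. With no flank it was 0.999, so this small difference had no stable direction, and the cause was not tested. No paired analysis was possible because there is a single group, so replicate numbers pair no samples. Unknown depth limits how far an absent summit can be read.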
